A study of Mus musculus with 6 samples.

Results

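TRIM proteins form a large family named for a shared tripartite motif of a RING finger, B-box zinc fingers and a coiled coil. Most are ubiquitin ligases, and many are known for their part in antiviral defence: some bind incoming viral capsids, others attach ubiquitin chains to sensors of viral nucleic acids, and a small subgroup acts on chromatin. A number of TRIM genes are interferon-inducible. Interferon regulatory factors such as IRF1 bind the interferon-stimulated response element, a DNA motif built around the letters GAAA, and the family was examined here in cells that lack IRF1.

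The genes described here carried a mouse symbol made of Trim, digits and at most 1 letter, and were selected on a mean normalized count of at least 10 over the 6 libraries. The table listed 67 such genes, of which 37 passed, among 11379 genes that passed the same limit of 41388 listed. A normalized count is a gene's number of reads after division by the size factor of that library. The data came from T cells of C57BL/6 mice, WT or Irf1-/-, kept for 2 days in Th9 medium with IL-2, IL-4, TGF-β and IFN-γ. There were 3 WT and 3 Irf1-/- libraries, and all 6 received IFN-γ, so that no library shows the family without it. By the study's methods the starting cells were naive CD4+ T cells of mice aged 8 to 12 weeks, and libraries were made from poly(A) RNA. Its general culture protocol stimulated cells with antibodies to CD3 and CD28. That protocol also held an antibody against mouse IFN-γ, and the added IFN-γ was rat protein. The labels give no animal for each library, and the study's legend speaks of 3 independent biological samples without naming animals. The p-values thus measure only the spread between these samples.

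The libraries held 5639788 to 13348230 reads on genes, and replicate 3 was the deepest library of each genotype. In normalized counts, 3 reads were worth 1.84 to 4.16. Irf1 itself had normalized counts of 2968, 2907 and 2659.8 in WT and of 1780.2, 1729 and 1476 in Irf1-/- libraries, so that 58.4% of the WT level was still read from the targeted gene, and counts per gene cannot show which exons these reads came from. Summed markers of CD4 T cells ranged from 14012 to 14286 in WT and from 13301 to 13815 in Irf1-/- libraries, with no overlap, and 2 of these 7 markers, Cd3e and Trac, fell with log2 fold changes of -0.30 and -0.32 (limma adjusted p = 0.00535 and 0.00632). The others were not called, with Cd3d, Lck and Cd3g at 0.14, 0.0753 and 0.0423 and Cd4 and Cd28 at -0.10 and -0.33. The 3 NK cell markers were at 0 in all 6. The 2 CD8 T cell markers summed to 32.4 to 41.2 in WT and to 20.3 to 30.7 in Irf1-/- libraries, without overlap, and the 4 B cell markers to 18.7 to 26.4 and 21.7 to 37.4. The 7 myeloid markers summed to 21.2 to 149 in WT and to 16.0 to 993 in Irf1-/- libraries, highest in Irf1-/- replicate 2. The 4 Y-linked transcripts summed to 2301 and 2306 in WT replicates 1 and 2, to 0 in WT replicate 3 and to 0 to 11.1 in the Irf1-/- libraries. Xist, a transcript of the inactive X chromosome, was at 2.5 and 6.01 in WT replicates 1 and 2 and at 16973 to 19403 in the other libraries. The genotypes were thus not balanced for sex, although the methods describe the mice as matched for it. A fit with log2 of the summed Y-linked level plus 1 as a covariate is given wherever it changed a call of a TRIM gene, a related gene or a partner. WT replicate 3 was the only WT library without Y-linked RNA, so that the genotype difference in that fit rests largely on this library. The 11.1 of Irf1-/- replicate 2 also entered above 0, although Xist was at 16973 in that library. In replicates 1 and 2 taken alone, the WT libraries held Y-linked RNA and the Irf1-/- libraries Xist, so that sex and genotype cannot be told apart in any value from these 4 smaller libraries. The part of CD8 T cell and myeloid RNA in the results was not tested. Fewer cells of a type and less RNA per cell cannot be told apart in these bulk samples.

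The promoters of the family are shown first, since the response element is the feature through which IRF1 is known to act. RefSeq promoters of GRCm38.p6, each 250 bases before to 50 bases after an annotated start, were found for 28 of the 37 genes and not for Trim3, Trim8, Trim11, Trim14, Trim16, Trim33, Trim35, Trim36 and Trim65. The core motif AANNGAAA, searched on both strands, was in the promoter of 12 of the 28 genes (42.9%), against 20.7% of 8795 tested genes with a promoter. A longer form, in which 2 copies of GAAA are separated by any 2 bases and which always contains the core, was in 8 of the 28 (28.6%), against 3.67% of the tested genes and 3.99% of all 27025 genes in the promoter table. Those 8 were Trim5, Trim12a, Trim12c, Trim30a, Trim30d and Trim34a, which make up every tested gene of the Trim5/Trim30 cluster on chromosome 7, together with Trim21 and Trim26. These are shares of letters in a fixed window and not of bound sites.

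For 4 genes of the cluster the match lay upstream of the start, and the 60 bases before the start are printed 5′ to 3′ on the strand of the gene, with the longer match in capitals. The strand of these genes is the minus strand, and the match reads on the opposite strand, so that GAAA appears as TTTC.
Trim30a (chr7:104465194-104465253): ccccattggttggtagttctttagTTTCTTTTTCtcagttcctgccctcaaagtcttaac
Trim30d (chr7:104507850-104507909): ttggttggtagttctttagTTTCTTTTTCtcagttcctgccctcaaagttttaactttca
Trim12c (chr7:104353350-104353409): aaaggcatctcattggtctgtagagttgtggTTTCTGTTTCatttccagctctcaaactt
Trim5 (chr7:104288107-104288166): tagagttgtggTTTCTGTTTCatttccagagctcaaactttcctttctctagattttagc

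For the other two genes of the cluster and for Trim21 the match lay just downstream of the annotated start, and 30 bases around it are printed. Trim21 has 2 overlapping matches there. Trim26, also with 2 overlapping matches but farther upstream, is shown over 60 bases. Trim34a and Trim26 are on the plus strand, Trim12a and Trim21 on the minus strand.
Trim12a (chr7:104315466-104315495): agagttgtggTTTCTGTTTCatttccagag
Trim34a (chr7:104244457-104244486): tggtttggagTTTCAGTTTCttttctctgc
Trim21 (chr7:102565447-102565476): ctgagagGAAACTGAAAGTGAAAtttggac
Trim26 (chr17:36836964-36837023): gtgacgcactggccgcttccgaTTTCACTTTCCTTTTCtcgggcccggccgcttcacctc

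Around the match the cluster fell into sequence groups. Over 60 bases anchored on the match and compared without gaps, Trim5 and Trim12a were 100% identical and both shared 57 of the 60 bases with Trim12c. Trim30a and Trim30d shared 98.3%. Between Trim30a and Trim12a the identity was 53.3%, and Trim34a had 38.3% with Trim30a and 45.0% with Trim12a. The match began 36 bases before the start in Trim30a, 41 in Trim30d, 29 in Trim12c and 49 in Trim5, and 10 bases after it in Trim12a and Trim34a. These are RefSeq starts. In Trim12a the RefSeq start is at 104315495 and the GENCODE gene begins at 104315466, so that the match lies upstream of the GENCODE start. A second annotated start of Trim30a had its match 2 bases after the start. Trim5, Trim12a and Trim12c, which carried nearly the same stretch, had log2 fold changes between Irf1-/- and WT cells of -0.0398, -0.54 and -0.82.

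**Figure D1:**
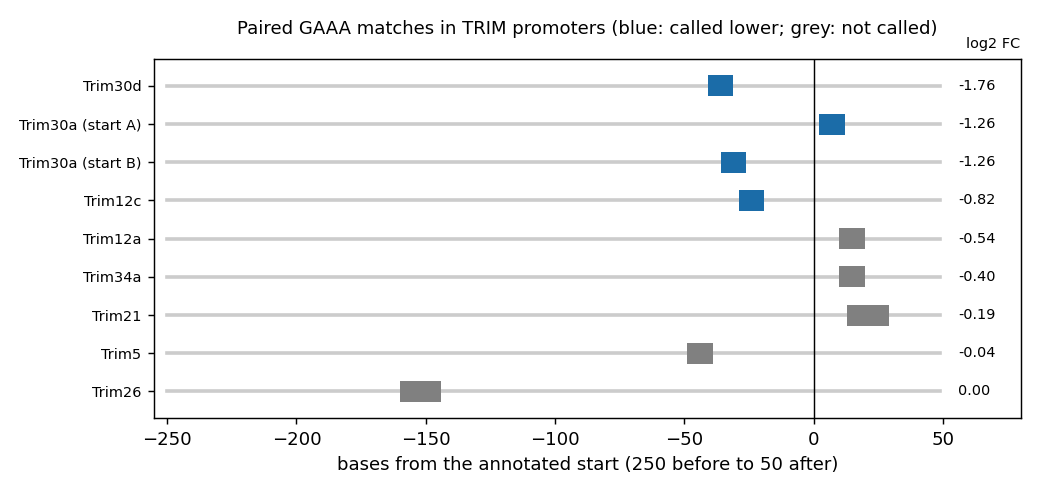
Position of the longer match (bars) within each RefSeq promoter window (grey lines), in bases from the annotated start, for the 8 TRIM genes that hold one, with Trim30a at both of its starts. Blue marks genes called lower in Irf1-/- Th9 cells and the numbers at the right are log2 fold changes, which run from -1.76 in Trim30d to about 0 in Trim26.

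The comparison of Irf1-/- with WT Th9 cells asked which TRIM genes differ in the absence of IRF1 when IFN-γ is present. At an adjusted p below 0.05 from limma with Benjamini-Hochberg adjustment over all 11379 genes, 6 of the 37 TRIM genes were lower and 5 were higher in Irf1-/- cells, and 26 were not called. The 11 called genes made 29.7% of the 37, beside 23.7% of all genes tested. The 6 lower genes made 16.2%, beside 12.4% for all genes, and the 5 higher genes 13.5%, beside 11.4%. As a family, then, the TRIM genes were called at a share near that of the whole table. WT and Irf1-/- values had no overlap for 15 of the 37, beside 40.5% of all genes tested. The median log2 fold change of the 37 was -0.0398, and that of all genes -0.0037. Fold changes are on the scale of log2(normalized count + 1), which understates the change of low genes, and are given with their standard error (SE). All 6 genes called lower had a promoter in the table, and 3 of them, all of the Trim5/Trim30 cluster, held the longer motif. Of the 20 uncalled genes with a promoter 5 held it, and the only called-higher genes with one, Trim41 and Trim46, held neither form.

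**Figure D2:**
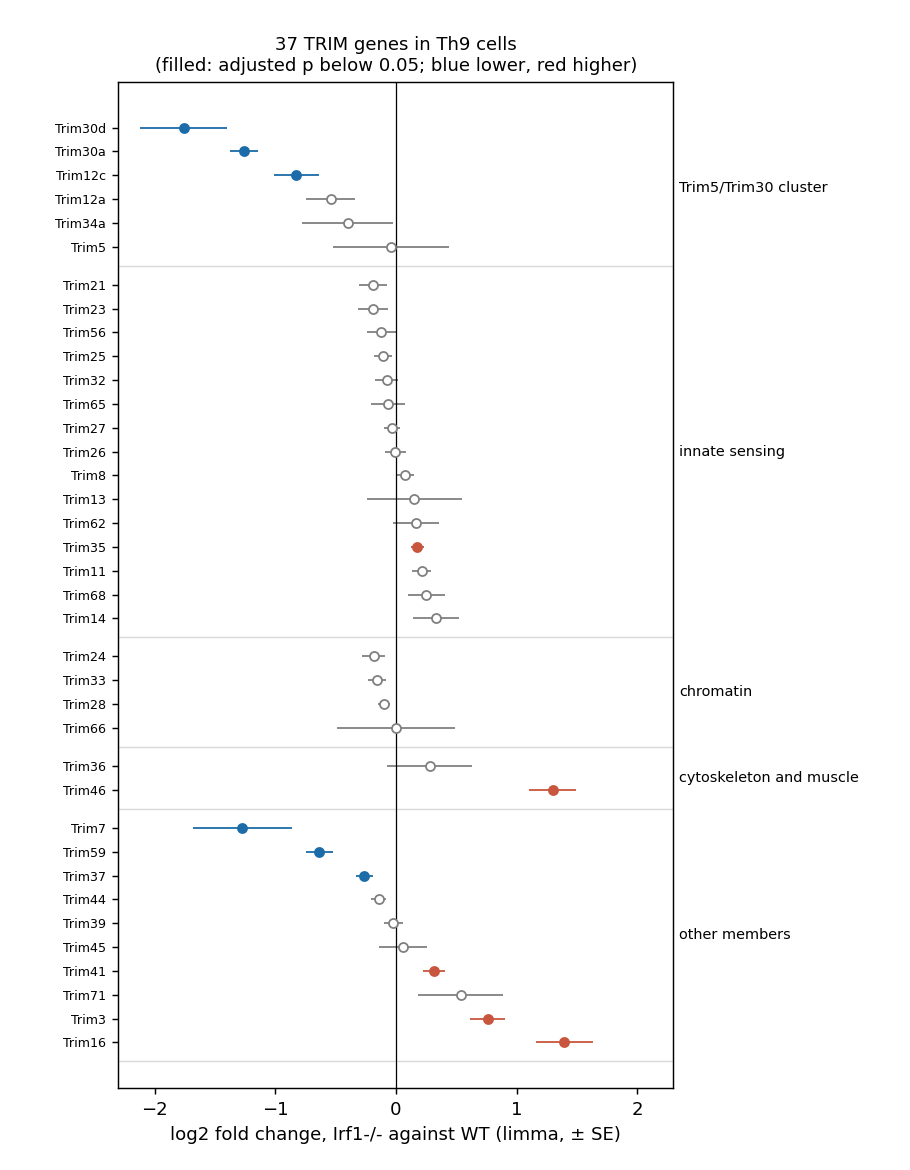
Log2 fold change of each of the 37 TRIM genes, Irf1-/- against WT, with its standard error, ordered within 5 groups by role. Filled points passed an adjusted p below 0.05. All 6 genes of the Trim5/Trim30 cluster lie at or left of 0, from -1.76 to -0.0398, while the 15 genes tied to innate sensing lie between -0.19 and 0.33.

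The Trim5/Trim30 cluster holds the mouse relatives of primate TRIM5, a factor that binds the capsid of incoming retroviruses, and the rodent Trim30 genes. It comprised 10 listed genes on chromosome 7, of which 6 were tested. Trim30a, Trim30d and Trim12c fell in Irf1-/- cells, and Trim12a, Trim34a and Trim5 were not called. The same number, 3 lower and 0 higher, was called by limma, edgeR and DESeq2, beside 12.4% lower and 11.4% higher of all genes tested in limma. At an unadjusted p below 0.05 limma had 4 lower and 0 higher, beside 18.9% lower and 17.8% higher of all genes. The median log2 fold change of the 6 was -0.68.

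Trim30a (ENSMUSG00000030921, chromosome 7 from 104409025 to 104465193, minus strand), known as a brake on NF-κB signalling downstream of Toll-like receptors, had the highest level per kb of exon in the cluster. Its normalized counts were 291, 346 and 312 in WT and 127, 118 and 152 in Irf1-/- libraries. Every WT value lay above every Irf1-/- value by a wide margin. The mean fell from 316 ± 28.0 (SD, n = 3) to 132 ± 17.8 (SD, n = 3), which is a log2 fold change of -1.26 (SE 0.12, limma adjusted p = 5.45e-05). This 2.39-fold difference kept its call in each of the 18 alternatives tested.

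Trim30d (ENSMUSG00000057596, chromosome 7 from 104470014 to 104507849) lies next to Trim30a. It had normalized counts of 25, 30.1 and 30.7 in WT and of 4.78, 6.93 and 13.4 in Irf1-/- libraries, the latter from 4 to 21 reads. The groups did not overlap, and the largest Irf1-/- value came from replicate 3. At a log2 fold change of -1.76 (SE 0.36, limma adjusted p = 0.00624), this was the lowest value among the 37, although with a pseudocount of 10 Trim30a was lower, at -1.20 against -1.09. The log2 fold change of Trim30d was -2.07 from replicates 1 and 2 alone and -1.14 between the replicate 3 libraries. Its Irf1-/- mean of 8.38 was itself below 10, so that Trim30d passed the limit only through its WT values.

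Trim12c (ENSMUSG00000057143, chromosome 7 from 104338754 to 104353362) had WT values that lay close together, at 141, 144 and 149. In the Irf1-/- libraries it was at 69.2, 68.0 and 114. Irf1-/- replicates 1 and 2 were thus at about the same level, and replicate 3 stood between them and WT. Its log2 fold change of -0.82 (SE 0.18, limma adjusted p = 0.00953) came to -1.05 when replicates 1 and 2 were taken alone and to -0.38 between the replicate 3 libraries, of which the latter was added after seeing the data.

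Trim12a (ENSMUSG00000066258, chromosome 7 from 104299894 to 104315466) had a like pattern, with 73.6, 67.3 and 79.3 in WT and 47.8, 38.8 and 67.7 in Irf1-/- libraries. Irf1-/- replicate 3 overlapped the WT range. The log2 fold change of -0.54 (SE 0.20) did not pass the test (limma adjusted p = 0.0814). Without Irf1-/- replicate 3 it was -0.75 with an adjusted p of 0.0147, from replicates 1 and 2 alone -0.70 with 0.0123, and with the Y-linked covariate -0.71 with an adjusted p of 0.0467.

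Trim34a (ENSMUSG00000056144, chromosome 7 from 104244457 to 104262234, plus strand) and Trim5 (ENSMUSG00000060441, chromosome 7 from 104263386 to 104288094) were near the limit of 10. Trim34a had 8.74, 19.2 and 16.6 in WT and 8.36, 9.71 and 14.1 in Irf1-/- libraries, with a log2 fold change of -0.40 (SE 0.38). Trim5 had 18.7, 14.4 and 4.30 in WT and 9.55, 9.71 and 12.1 in Irf1-/- libraries, with a log2 fold change of -0.0398 (SE 0.48). The genotypes overlapped for both genes, and no difference was detectable at this depth. For Trim5 the direction turned, to values between 0.00589 and 0.33, when any 1 of WT replicates 1 and 2 and Irf1-/- replicates 1 and 2 was left out.

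In all 6 tested genes of the cluster, replicate 3 gave the highest Irf1-/- value. It stood above the mean of replicates 1 and 2 by 1.24-fold in Trim30a, 1.66-fold in Trim12c, 1.56-fold in Trim12a, 2.29-fold in Trim30d, 1.56-fold in Trim34a and 1.26-fold in Trim5. On the WT side the same ratio was 0.980 in Trim30a, 1.04 in Trim12c, 1.13 in Trim12a, 1.1 in Trim30d, 1.19 in Trim34a and 0.260 in Trim5. A highest Irf1-/- value in replicate 3 was not particular to the cluster. Among the called genes outside it, this held for Trim59, Trim7, Trim16 and Trim41, and not for Trim37, Trim35, Trim46 and Trim3. Replicate 3 of both genotypes held the deepest libraries, and the myeloid markers summed to 16.0 in Irf1-/- replicate 3 against 209 and 993 in replicates 1 and 2. The part of depth and of myeloid RNA in this was not tested. The cluster genes are also close paralogs. Of the 50-base windows in their transcripts, 5.98% in Trim30a, 7.49% in Trim30d and 7.86% in Trim12a occurred in another gene of the family or the region, but 30.2% in Trim12c, 31.1% in Trim5 and 39.8% in Trim34a, the last shared with Trim34b. How reads matching several genes were counted is not given in the sources used here, so that the values of Trim12c, Trim5 and Trim34a are uncertain. The window has the read length given in the methods, and the labels give a longer one.

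**Figure D3:**
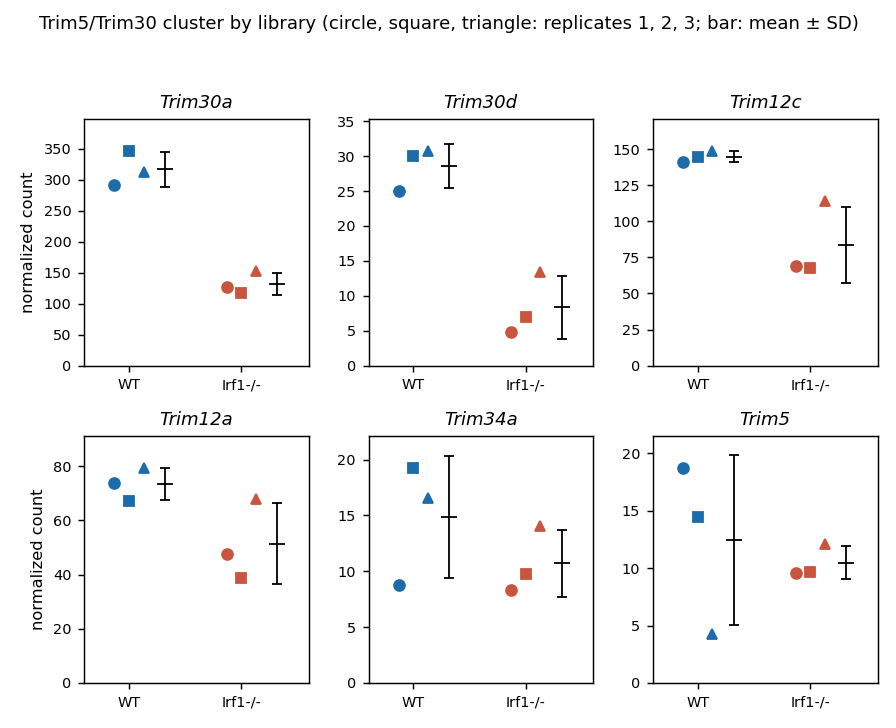
Normalized count (vertical axes, from 0) of the 6 tested genes of the Trim5/Trim30 cluster in 3 WT and 3 Irf1-/- libraries, with the mean ± SD beside the points. Trim30a, Trim30d and Trim12c do not overlap between genotypes, and the triangle of replicate 3 is the highest Irf1-/- point in all 6 panels.

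Among the genes tied to innate sensing only Trim35 was called, and it rose. This list holds ligases that act on nucleic acid sensors and their adaptors, such as TRIM25, which ubiquitinates RIG-I, and TRIM21, a cytosolic antibody receptor. Of 18 listed, 15 were tested, 0 fell and 1 rose, beside the 12.4% and 11.4% of all genes above, and their median log2 fold change was -0.004. At an unadjusted p below 0.05 limma and edgeR had 0 lower and 2 higher and DESeq2 0 lower and 1 higher, beside 18.9% lower and 17.8% higher of all genes in limma. Trim25 had normalized counts of 971, 949.7 and 1038 in WT and of 848, 882 and 1023 in Irf1-/- libraries, with overlapping ranges and a log2 fold change of -0.11 (SE 0.0768). Trim21 had 165, 191 and 220 in WT and 166, 171 and 164 in Irf1-/- libraries, with a log2 fold change of -0.19 (SE 0.12). Trim26 was at -0.004 (SE 0.0858). The promoters of Trim21 and Trim26 hold the longer motif, as do those of the cluster, and neither gene was called. The remaining genes of the list, among them Trim23, Trim27, Trim32 and Trim56, were between -0.19 and 0.33 in log2 fold change.

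Trim35 (ENSMUSG00000022043, chromosome 14 from 66297031 to 66311424), a ligase reported to act on IRF7, was the called gene of this list. It had 1162, 1193 and 1156 in WT and 1372, 1277 and 1328 in Irf1-/- libraries. The groups did not overlap, but the difference was small, a log2 fold change of 0.18 (SE 0.0542, limma adjusted p = 0.0359). The adjusted p rose to between 0.0529 and 0.133 without any 1 of 5 libraries, WT replicates 1, 2 and 3 and Irf1-/- replicates 1 and 3, and to 0.0672 with the Y-linked covariate. In limma it was 0.0926 without the trend and 0.0667 with no limit on the mean. In DESeq2 it was 0.0764, and 0 genes of this list were called there. Trim11 and Trim68 also had no overlap between genotypes, with log2 fold changes of 0.22 and 0.25, and did not pass the test, with limma adjusted p of 0.0711 and 0.255. Without Irf1-/- replicate 3, Trim11 was at 0.26 with an adjusted p of 0.0452, and from replicates 1 and 2 alone, where sex and genotype coincide, at 0.23 with 0.0226. With the Y-linked covariate its adjusted p was 0.0566.

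The 4 chromatin genes, which encode the transcriptional intermediary factors, had 0 calls in limma, edgeR and DESeq2, beside 23.7% of all genes in limma. At an unadjusted p below 0.05 limma had 0, DESeq2 0 and edgeR 1 lower, and the share of all genes in limma was 18.9% lower and 17.8% higher. Trim28, the corepressor of KRAB zinc finger proteins, had 5612, 5484 and 5374 in WT and 5279.6, 5255 and 4862 in Irf1-/- libraries. Its values did not overlap, but the log2 fold change was -0.10 (SE 0.0514, limma adjusted p = 0.197). Trim24, a cofactor of nuclear receptors, had 489, 500.1 and 564 in WT and 426, 422 and 522 in Irf1-/- libraries. Its log2 fold change of -0.18 (SE 0.0960) had a limma adjusted p of 0.193, of 0.0298 without Irf1-/- replicate 3 and of 0.0270 from replicates 1 and 2 alone. Trim33, which binds SMAD proteins of TGF-β signalling, had 668, 729.7 and 783 in WT and 657, 614 and 679 in Irf1-/- libraries. Its log2 fold change was -0.16 (SE 0.0747, limma adjusted p = 0.151). With the Y-linked covariate, Trim24 and Trim33 were at -0.31 and -0.26 with limma adjusted p of 0.0405 and 0.0335. Trim66 was low, at 25, 19.2 and 5.53 in WT and 17.9, 9.71 and 16.0 in Irf1-/- libraries, and its log2 fold change of 0.00085 (SE 0.49) has no readable direction.

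Outside the cluster, 3 further genes fell. Trim59 (ENSMUSG00000034317, chromosome 3 from 69035288 to 69044755), a membrane-anchored ligase tied to cell proliferation, had 704, 710.5 and 855 in WT and 494, 413 and 559 in Irf1-/- libraries. No Irf1-/- value reached the WT range. The mean fell from 756 ± 85.4 (SD, n = 3) to 489 ± 73.1 (SD, n = 3), which is a log2 fold change of -0.63 (SE 0.11, limma adjusted p = 0.00286). The value was -0.64 from replicates 1 and 2 alone and -0.61 between the replicate 3 libraries, and Trim59 was called in all 18 alternatives tested. Its promoter held neither form of the motif.

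Trim37 (ENSMUSG00000018548, chromosome 11 from 87127077 to 87220683), a ligase of peroxisomes and centrosomes, had 633, 561 and 580 in WT and 518, 478 and 482 in Irf1-/- libraries. The groups did not overlap and the log2 fold change was -0.26 (SE 0.0721, limma adjusted p = 0.0245). The call was lost without WT replicate 1 (adjusted p = 0.111), without Irf1-/- replicate 2 (adjusted p = 0.0823) and with the Y-linked covariate (adjusted p = 0.0658), each from limma. It was also lost in limma without the trend (adjusted p = 0.0647) and in DESeq2 (adjusted p = 0.0688).

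Trim7 (ENSMUSG00000040350, chromosome 11 from 48826140 to 48852209), known for binding glycogenin, had the lowest level per kb of the called genes. It had 17.5, 18.0 and 8.61 in WT and 4.78, 4.16 and 7.03 in Irf1-/- libraries, from 14 to 15 reads in each WT and 3 to 11 in each Irf1-/- library. WT replicate 3 lay close to Irf1-/- replicate 3. Its log2 fold change of -1.27 (SE 0.41, limma adjusted p = 0.0462) became -0.87 with an adjusted p of 0.254 with the Y-linked covariate, and -0.26 between the replicate 3 libraries. Its adjusted p was between 0.108 and 0.170 without any 1 of WT replicates 1 and 2 and Irf1-/- replicates 1 and 2. It was 0.0619 in edgeR, 0.167 in DESeq2 and 0.0833 in limma with no limit on the mean. With the other pseudocounts it was just above 0.05 in limma. With an overall mean of 10.0 and an Irf1-/- mean of 5.32, Trim7 also passed the limit only through its WT values.

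Trim16 (ENSMUSG00000047821, chromosome 11 from 62820231 to 62850808), a member without a RING finger that takes part in autophagy of damaged organelles, had 16.2, 16.8 and 14.8 in WT and 34.6, 44.4 and 53.7 in Irf1-/- libraries. The lowest Irf1-/- value was far above each WT value. It rose by a log2 fold change of 1.40 (SE 0.24, limma adjusted p = 0.0022).

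Trim46 (ENSMUSG00000042766, chromosome 3 from 89234177 to 89246309), which bundles microtubules at the base of axons, had 38.7, 30.1 and 51.0 in WT and 99.1, 95.7 and 97.8 in Irf1-/- libraries. The 3 Irf1-/- values were nearly the same, at 97.5 ± 1.72 (SD, n = 3). It rose by a log2 fold change of 1.30 (SE 0.19, limma adjusted p = 0.00109). Over 239 bases, 6.30% of its exon length, Trim46 overlaps Krtcap2 on the opposite strand. Krtcap2, with a mean of 736, rose too, by a log2 fold change of 0.68 (limma adjusted p = 5.99e-04), and the part of Krtcap2 reads in the value of Trim46 was not tested. Trim36, the other tested gene of the cytoskeleton and muscle list, was not called, at a log2 fold change of 0.28 (SE 0.35).

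Trim3 (ENSMUSG00000036989, chromosome 7 from 105604463 to 105633571), an NHL-repeat protein best known from neurons, had 74.9, 61.3 and 63.3 in WT and 125, 115 and 100.3 in Irf1-/- libraries. The groups were well apart, and the log2 fold change was 0.76 (SE 0.14, limma adjusted p = 0.00417). The gene lies on the same chromosome as the Trim5/Trim30 cluster, whose called genes moved the other way.

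Trim41 (ENSMUSG00000040365, chromosome 11 from 48806404 to 48817353), a ligase first described for protein kinase C, had 265, 248 and 290.1 in WT and 320.0, 326 and 353 in Irf1-/- libraries. The log2 fold change was 0.32 (SE 0.0881, limma adjusted p = 0.0257). The call was lost without any 1 of WT replicates 1 and 2 and Irf1-/- replicates 1, 2 and 3, with adjusted p between 0.0520 and 0.104, and with the Y-linked covariate, with 0.155. It was also lost in limma without the trend (adjusted p = 0.0537) and in DESeq2 (adjusted p = 0.0753). Trim41 shares 31 exon bases with Rack1 on the opposite strand, which had a mean of 19159 and rose by a log2 fold change of 0.23 (limma adjusted p = 0.00778). Trim41 and Trim7 are neighbours, 4.95 and 4.92 Mb from the targeted Irf1 gene on chromosome 11. On the same chromosome Trim11 and Trim16 lie 5.20 and 9.04 Mb from it, and Trim37, Trim25 and Trim65 lie 33.3, 35.2 and 62.3 Mb from it. The part of this nearness in their values was not tested.

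**Figure D4:**
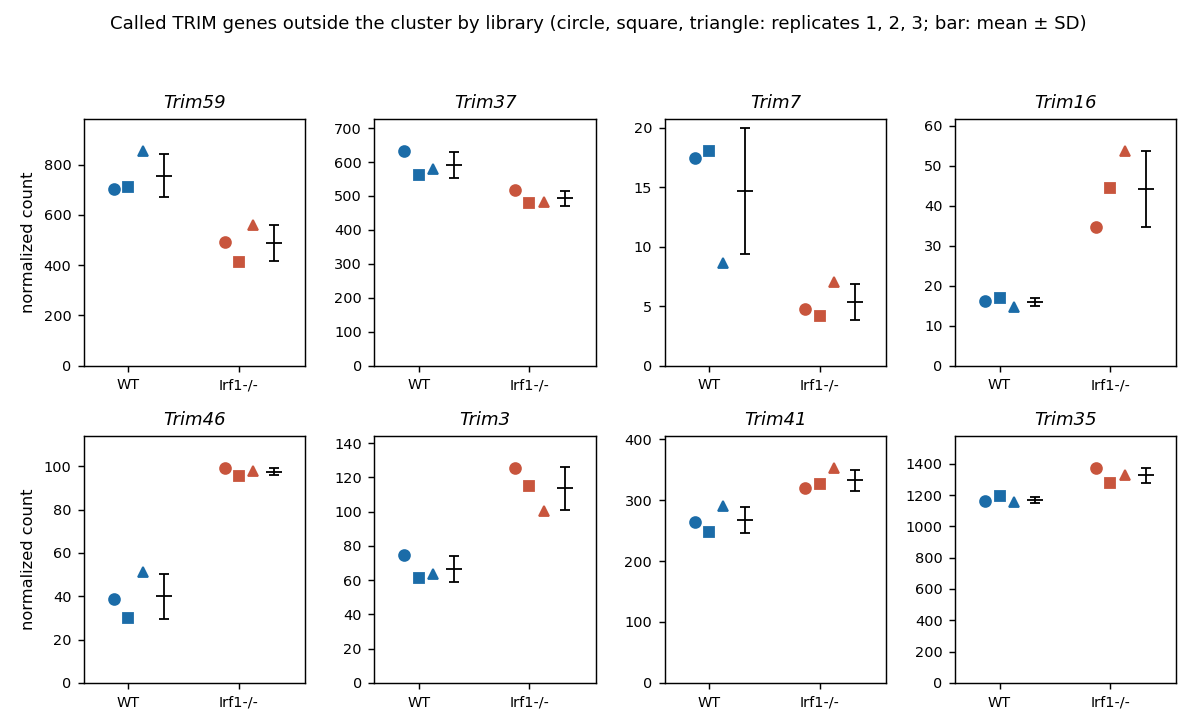
Normalized count (vertical axes, from 0) of the 8 called TRIM genes outside the Trim5/Trim30 cluster in 3 WT and 3 Irf1-/- libraries, with the mean ± SD beside the points. Trim16 and Trim46 show the widest gaps, Trim35 and Trim41 small gaps on a high level, and Trim7 has WT replicate 3 at 8.61 close to Irf1-/- replicate 3 at 7.03.

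The remaining genes were not called. Trim44 had no overlap between genotypes and a log2 fold change of -0.14 (SE 0.0641, limma adjusted p = 0.132), and -0.21 with an adjusted p of 0.0112 from replicates 1 and 2 alone, where sex and genotype coincide. It was -0.14 with an adjusted p of 0.246 with the Y-linked covariate and -0.0183 between the replicate 3 libraries. Trim39 and Trim45 had log2 fold changes of -0.0198 and 0.0562. Trim71, an NHL-repeat gene of stem cells, had 6.24, 10.8 and 7.99 in WT and 13.1, 13.9 and 10.2 in Irf1-/- libraries. Its log2 fold change was 0.54 (SE 0.35), and its WT mean of 8.35 means that it passed the limit only through the Irf1-/- values. Just inside the limit were Trim7, Trim71 and Trim5, with overall means of 10.0, 10.4 and 11.5. Just outside were Trim2, Trim6 and Trim47, with 7.70, 3.36 and 3.06. Trim2 had 4.99, 6.01 and 3.07 in WT and 15.5, 8.32 and 8.31 in Irf1-/- libraries, and Trim6 had 1.25, 0 and 4.30 in WT and 5.97, 4.16 and 4.47 in Irf1-/- libraries. Trim47 had 4.99, 3.61 and 1.84 in WT and 2.39, 5.55 and 0 in Irf1-/- libraries. Of the 30 genes below the limit, 9 were at 0 in all 6 libraries and 25, those 9 included, were at 3 reads or fewer in every library. With no limit on the mean, the 21 genes with any read had 0 calls in limma, beside 11.7% of all 21583 genes in that fit. At an unadjusted p below 0.05 it had 1 lower and 3 higher, beside 11.3% lower and 11.5% higher of all genes.

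Across the family the levels spanned 3 orders of magnitude. Per kb of exon, Trim28 had a normalized count of 1277 as a mean over the 6 libraries, followed by Trim35 at 270.2, Trim27 at 229.7, Trim59 at 186, Trim8 at 180.4 and Trim25 at 165. The order of Trim59 and Trim8 depended on the genotype, with 226 and 176 per kb in WT and 146 and 185 per kb in Irf1-/- cells. Trim30a, at 77.0 per kb in WT, stood near Trim32 at 75.3 and Trim33 at 74.1, and at 32.2 per kb in Irf1-/- cells it was below both, which were at 71.3 and 66.3. The lowest of the 37 were Trim7 at 1.32 and Trim71 at 1.11 per kb, although in WT alone Trim7, at 1.94, was above Trim66, at 1.64. The called genes were found at high and at low levels.

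**Figure D5:**
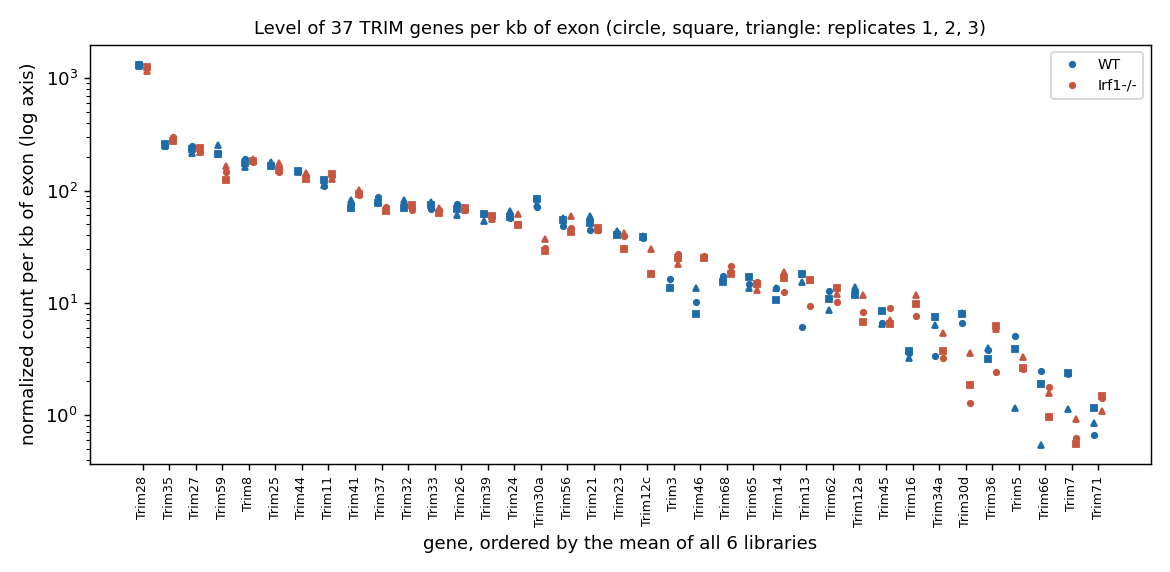
Normalized count per kb of exon (log axis) of the 37 TRIM genes in each of 3 WT and 3 Irf1-/- libraries, ordered by the mean of all 6. Trim28 stands alone at 1277 per kb, and Trim30a, Trim30d, Trim16 and Trim46 show separate blue and red points.

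The genes with which TRIM ligases are known to work were read from the same fit. Among 15 partners in RIG-I, MDA5 and cGAS signalling, all tested, 5 fell and 2 rose, beside 12.4% lower and 11.4% higher of all genes tested. The sensors Ifih1, which encodes MDA5, Zbp1 and Cgas fell, with log2 fold changes of -1.34, -1.23 and -0.68. The kinase Ikbke and the adaptor Tmem173, which encodes STING, fell with -0.75 and -0.40. Irf3 and Irf7 rose, with 0.28 and 1.09, Irf7 from a WT mean of 7.36. With the Y-linked covariate, Cgas was at -0.43 and Irf7 at 1.04 with limma adjusted p of 0.0995 and 0.108, and Nlrx1, not called before at 0.41, was at 0.66 with 0.0360. Ddx58, which encodes RIG-I, the partner of TRIM25, was not called at -0.34 (SE 0.16). Among 12 ubiquitin enzymes, Usp15, a deubiquitinase that removes chains from TRIM25, fell with -0.21 and the other 11 were not called, beside 23.7% of all genes called in either direction. Of the 6 related genes without the Trim name, Pml, Mid1 and Bspry were tested, with 0 calls in limma, edgeR and DESeq2, also at an unadjusted p below 0.05, beside 23.7% of all genes called in limma, and 18.9% lower and 17.8% higher at an unadjusted p. Pml, whose product organises nuclear bodies, had a log2 fold change of 0.0728 (SE 0.0563).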

How the data were processed

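Per the labels and the study's methods, the authors aligned single-end poly(A) reads to GRCm38 with STAR 2.4.0b, summed them per Ensembl gene with featureCounts and used DESeq2 1.12.3. The deposited values, recorded here as a signal, are counts divided by a size factor of each library, which gave whole reads for 100% of values within 0.001. Whether counting used strand is not given in the sources used here. Genotypes were compared with limma 3.58.1 (eBayes with trend) in R 4.3.3 on log2 of the normalized count plus 1, keeping genes with a mean of 10 or more, and p-values were adjusted by Benjamini-Hochberg. On the recovered reads, edgeR 4.0.16 called 1417 genes lower and 1261 higher and DESeq2 1.42.0 1060 and 942, against 1406 and 1293 in limma. In simulated data of WT against Irf1-/-, 100 of 11379 genes were changed by 1 on the log2 scale and 100 others by 2. Of those changed by 1, limma recovered 100%, edgeR 99% and DESeq2 89%, while 6, 7 and 8 unchanged genes were called, respectively. The simulation gave every gene the same dispersion and held no difference of sex. It therefore does not show the power for low or variable TRIM genes. Symbols and coordinates came from GENCODE M21 and promoters from RefSeq, both GRCm38. The TRIM genes, the lists by role and the tests were chosen with earlier results of these data known. Full values are given for called genes without overlap, the Trim5/Trim30 cluster, the chromatin genes and the 3 genes on each side of the limit. Alternatives were other pseudocounts, filters, scalings, tests, a replicate block, a Y-linked covariate and libraries left out.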

Additional observations from a re-analysis of the deposited data

How the results depend on the processing

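Of the 11 calls, Trim30a, Trim12c, Trim59, Trim3 and Trim46 held in all 18 alternatives and Trim30d and Trim16 in all 17 that tested them, while Trim7, Trim35, Trim37 and Trim41 were lost in 5 to 10. The number of TRIM genes called higher was 3 without the trend, with DESeq2 and with the Y-linked covariate, and 3 to 4 with 1 library left out, against 5. The number called lower, against 6, was 4 with DESeq2, 9 in the 4 smaller libraries and 4 to 8 with 1 library left out. The counts over all genes also differed between these fits, as given below. The median log2 fold change was 0.0569 with the Y-linked covariate and 0.0460 in the pair of larger libraries, chosen after seeing the data, and between -0.0864 and 0.000671 with 1 library left out, above 0 without WT replicate 2; the cause was not tested. Trim5 was at 0.77 with the Y-linked covariate, at 1.31 in that pair and between -0.61 and 0.33 with 1 library left out. Trim66 was at -0.0506 with a pseudocount of 10, -0.15 with quantile normalization, -0.000899 with TMM factors, -0.0158 in edgeR, -0.12 in DESeq2, -0.69 in the 4 smaller libraries, 0.79 with the Y-linked covariate, 1.38 in the pair of larger libraries and between -0.60 and 0.39 with 1 library left out. Neither gene was called in any alternative, and the cause was not tested.

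Same-numbered libraries of the genotypes deviated together with correlations of 0.0922, 0.269 and 0.321, so that not every pair passed 0.1, although every library correlated best with its own number. With a replicate block, 8 TRIM genes were lower and 6 higher, all 11 calls included, with Trim12a, Trim24 and Trim11 in addition at adjusted p of 0.0187, 0.0350 and 0.0175 from limma, and over all genes 2116 were lower and 1893 higher. Over all genes the counts lower and higher, against 1406 and 1293, were 807 and 928 without the trend and 1395 and 1096 with the Y-linked covariate. They were 2085 and 1810 in the 4 smaller libraries. Leaving out WT replicate 1, 2 or 3 gave 829 and 808, 826 and 799, and 1430 and 1372, respectively. Leaving out Irf1-/- replicate 1, 2 or 3 gave 1004 and 917, 895 and 820, and 1472 and 1223, respectively.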
